A study of Mus musculus with 2 samples.

Results

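Hcn2, Hcn3 and Hcn4 encode pore-forming subunits of hyperpolarization-activated, cyclic nucleotide-gated (HCN) channels. The 3 genes were found by their symbol in the deposited tables, where each has 1 RefSeq transcript row, so they make up 3 of 24411 genes and 3 of 35034 transcripts, and the gene total equals the transcript value. What is said here of their order covers these 3 genes and not every HCN subunit. RNA came from dorsal root ganglion (DRG) neurons of male C57BL/6 mice (C57BL/6J in the study's methods), and the cells of 10 mice were pooled into 1 library per group. The age of the mice is given as 6 to 8 weeks, in the study's methods for the mice as purchased, so they were older at harvest. Mice of the alum group received the aluminium salt adjuvant alone, and mice of the alum + KLH group received alum with keyhole limpet hemocyanin, a mollusc protein used as antigen, both by intraperitoneal injection on days 0 and 14 with harvest on day 28. The label of the control library calls it both naïve and alum alone, and it is named alum here. Thoracic and lumbar ganglia were digested, spun through a protein cushion to enrich neurons and depleted of B lymphocytes, so the libraries hold a mixture of neuron classes with remaining glia.

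HCN channels carry an inward cation current that opens when the membrane hyperpolarizes, which drives the cell back towards threshold and supports rhythmic firing in the heart and in neurons. A domain in their intracellular tail binds cAMP, and this binding makes the channel open more readily, so that receptors raising cAMP tune the current. HCN2 responds strongly to cAMP and is known in sensory neurons for its part in inflammatory pain, HCN4 is the main pacemaker subunit of the sinoatrial node, and HCN3 responds weakly to cAMP.

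The stretch of coding sequence that spells the ion selectivity filter is shown for each gene because it is strongly conserved between the subunits, and likeness between genes bears on how reads can be assigned to them. Capitals mark the 9 bases that encode the glycine-tyrosine-glycine filter, and each window of 69 bases is given 5′ to 3′ on the coding strand of the GENCODE M21 transcript (GRCm38, the assembly also called mm10). All windows lie within exon 4 of 8.
Hcn2: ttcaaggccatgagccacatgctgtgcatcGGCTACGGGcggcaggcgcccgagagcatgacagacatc
Hcn3: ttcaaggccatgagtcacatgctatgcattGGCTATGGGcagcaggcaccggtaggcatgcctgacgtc
Hcn4: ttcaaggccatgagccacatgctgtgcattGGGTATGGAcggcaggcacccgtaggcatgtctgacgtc
The Hcn2 window lies at chr10:79728929-79728997 on the plus strand, the Hcn3 window at chr3:89150976-89151044 on the minus strand and the Hcn4 window at chr9:58855561-58855629 on the plus strand. Hcn3 and Hcn4 differed at 7 of the 69 bases, Hcn2 and Hcn4 at 11, and Hcn2 and Hcn3 at 13. Even here the identical stretches were short. Over the whole transcripts, the longest run shared by Hcn2 and Hcn4 was 32 bases (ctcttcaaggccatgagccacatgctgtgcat), which begins just before the windows above, while Hcn2 and Hcn3 shared at most 33 bases and Hcn3 and Hcn4 at most 32. Of all 31-base words of the Hcn2 transcript 0.158% also occurred in transcripts of another gene, and of the Hcn4 transcript 0.0657%, so nearly all of their sequence was particular to 1 gene.

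Hcn3 differed in this respect. Of its 31-base words 17.3% were also found in another gene, nearly all of them in Pklr, the liver and red cell pyruvate kinase gene, which lies on the opposite strand and runs into the last exon of Hcn3. The genes overlap by 711 bases in GENCODE M21 but by 41 bases in the RefSeq annotation of GRCm38.p6, so the share in the transcriptome used for quantification depends on its 3′ end. Whether the strand of the reads was used in that step is not given in the sources used here. Pklr itself was at 0.24 TPM in the alum pool and 0.27 TPM in the alum + KLH pool. Values of Hcn3 are therefore less certain than those of Hcn2 and Hcn4. The gene Hcn2 spans chr10:79716634-79736108, Hcn3 chr3:89146074-89160196 and Hcn4 chr9:58823412-58863175, each with 8 exons. Their transcripts are 3195, 4002 and 6118 bases long in this order, against a median of 2543 bases over 27358 protein-coding transcripts of the tables, and are rich in G and C, at 65.4%, 58.0% and 58.0% against a median of 49.9%. Only 0.420% of those transcripts had a higher GC content than Hcn2.

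Expression was given as TPM, a relative transcript abundance that is corrected for transcript length and adds up to 1000000 in each library, so levels of different genes can be compared within a library. There are no replicates: each value is that of 1 library of 10 pooled mice, no error between mice can be given and no test of the immunization was made. TPM holds no read numbers, so depth is unknown from the tables. Pan-neuronal genes were high in both pools, led by Nefl (neurofilament light chain) at 5259 and 5048 TPM, while 3 TPM, the threshold that the study used for detectable expression, was reached by none of the 5 macrophage genes found (highest on average Cd68, 0.98 and 1.63 TPM), the 3 smooth muscle genes (highest Tagln, 2.00 and 1.77 TPM) or the 4 genes of striated and cardiac muscle (highest on average Acta1, 0.23 and 0.039 TPM). Of the 3 endothelial genes only Cdh5 exceeded it, at 3.79 and 3.15 TPM.

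Hcn2 was the highest of the 3 genes, with 8.39 TPM in the alum pool and 7.45 TPM in the alum + KLH pool. Both values were above 3 TPM, and 36.3% and 36.9% of all genes were higher. Hcn4 followed at 5.24 TPM in the alum pool and 6.69 TPM in the alum + KLH pool, with 41.4% and 38.2% of genes above it. Hcn4 was thus above the threshold in both pools. Of the markers of striated and cardiac muscle, Myh6, a cardiac myosin heavy chain, was at 0.11 and 0.088 TPM. Ckm, muscle creatine kinase, was listed at 0 in both. Which cells carried the Hcn4 RNA was not tested. Hcn3 was the lowest at 2.44 and 1.71 TPM, under the threshold in both pools and close to the median gene, which was at 2.15 and 2.00 TPM. The order Hcn2, Hcn4, Hcn3 held in both pools, each a single library without an error. In the alum + KLH pool Hcn2 and Hcn4 were close, at 7.45 and 6.69 TPM.

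**Figure D1:**
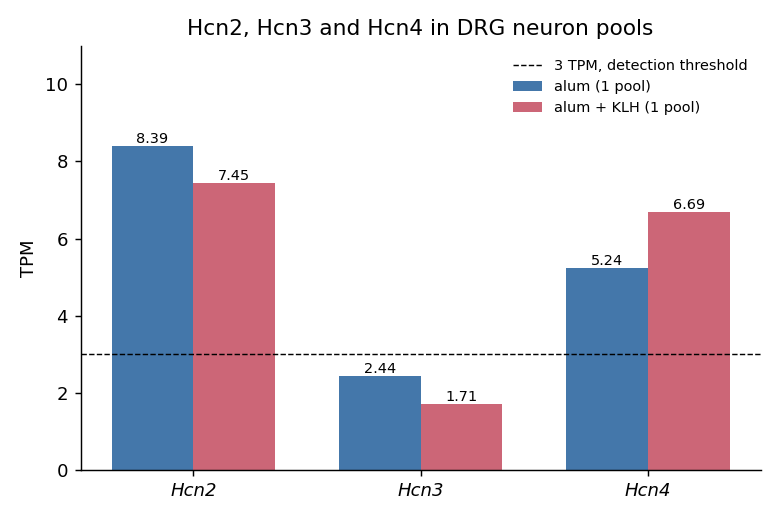
Bars give TPM (vertical axis, from 0) of Hcn2, Hcn3 and Hcn4 in the alum pool (blue) and the alum + KLH pool (red), 1 library each and hence without error bars, with the 3 TPM threshold dashed. Hcn2 and Hcn4 stand above the line in both pools, Hcn3 below it, and Hcn4 is the gene with the higher bar in the alum + KLH pool.

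Ratios between the genes within a library do not depend on how the libraries are scaled to each other. In the alum pool Hcn2 was 1.60 times Hcn4 and 3.44 times Hcn3. In the alum + KLH pool Hcn2 was 1.11 times Hcn4 and 4.36 times Hcn3. Hcn2 and Hcn4 were therefore nearer to each other in the alum + KLH pool, and Hcn4 was farther above Hcn3, at 3.91 times against 2.15 times. The ratios to Hcn3 rest on a gene under 3 TPM in both pools, and no spread was available for any of these ratios. The sum of the 3 genes was 16.1 TPM in the alum pool and 15.8 TPM in the alum + KLH pool, and Hcn4 made up 32.6% of it in the former and 42.2% in the latter. Since long transcripts collect more reads per TPM, the product of TPM and transcript length in kilobases orders the genes by the sequence behind each value. It was 32.1 and 40.9 for Hcn4, 26.8 and 23.8 for Hcn2 and 9.77 and 6.85 for Hcn3 in the alum and alum + KLH pools, so Hcn3 rested on the least sequence. The lengths are those of GENCODE M21, where Hcn3 reaches further at its 3′ end than in RefSeq, so its product may be too high.

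The pools were compared by the log2 ratio of TPM + 1 in alum + KLH over TPM + 1 in alum, in which the added 1 TPM shrinks differences of low genes. Genes that exceeded 3 TPM in one pool or both numbered 11648, and 1.64% of them were at least 2-fold apart, with 0.695% higher and 0.944% lower in alum + KLH. Hcn2 and Hcn4 passed this filter, and 0 of these 2 genes were 2-fold apart. Hcn3 did not pass it and was not 2-fold apart either, where 0.905% of all 24411 genes were, 0.397% higher and 0.508% lower. For Hcn4 the log2 ratio was 0.30, for Hcn2 it was -0.15 and for Hcn3 -0.34, against a median of -0.020 over those genes. In TPM the differences were 1.45 for Hcn4, -0.94 for Hcn2 and -0.73 for Hcn3. The genes thus did not differ between the pools in a common direction.

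In place of a replicate error, each log2 ratio was set beside its SD over the 500 genes closest in mean level, which describes how far similar genes lay apart in the same 2 libraries and says nothing of mice. For Hcn4 this SD was 0.23, less than its ratio, and 80 of the 500 genes were at least as far apart. For Hcn2 the SD was 0.51, more than its ratio, and 197 of its 500 neighbours lay as far apart. For Hcn3 the SD was 0.51, again more than its ratio, with 76 of 500 as far apart. Without rows of microRNA and small nucleolar RNA the SD was 0.24 for Hcn3 but still 0.51 for Hcn2. With neighbours restricted to genes with a protein-coding transcript, a choice made after the data were seen, the SD was 0.17 for Hcn2, 0.23 for Hcn3 and 0.20 for Hcn4, so that the ratios of Hcn3 and Hcn4 exceeded it and that of Hcn2 did not.

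**Figure D2:**
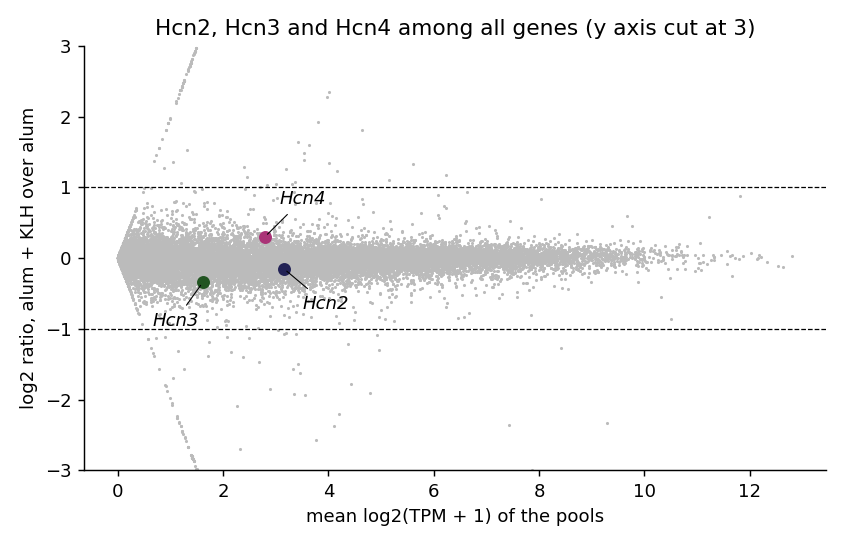
Each grey point is a gene, placed by its mean log2(TPM + 1) over the pools (horizontal axis) and its log2 ratio of alum + KLH over alum (vertical axis, cut at 3, which leaves out 44 genes), with dashed lines at a 2-fold difference. Hcn2 (-0.15), Hcn3 (-0.34) and Hcn4 (0.30) lie inside the dashed lines and within the cloud of genes of similar level.

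The closest relatives of HCN channels in sequence are the cyclic nucleotide-gated (CNG) channels of photoreceptors and olfactory neurons and the KCNH potassium channels. CNG channels carry the same kind of cyclic nucleotide-binding domain, and KCNH channels carry a domain that resembles it in sequence. Of 6 CNG genes, 1 was above 3 TPM in both pools. This was Cnga3, the cone photoreceptor subunit, at 5.76 TPM in alum and 5.47 TPM in alum + KLH, close to Hcn4. The next were Cngb1 at 0.38 and 0.21 TPM and Cnga4 at 0.077 and 0.22 TPM. Among the 8 KCNH genes, 5 were above the threshold in both pools, and Kcnh7, an ERG-type channel, was far above the HCN genes described here at 88.0 and 87.5 TPM. Kcnh1 followed at 16.0 and 15.3 TPM and Kcnh5 at 9.84 and 10.2 TPM. Only these 3 of the 14 genes were higher than Hcn2 in either pool, and 7 of the 14 were higher than Hcn3 in each pool. No CNG or KCNH gene above 3 TPM in a pool was 2-fold apart between the pools, where 1.64% of all 11648 such genes were.

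**Figure D3:**
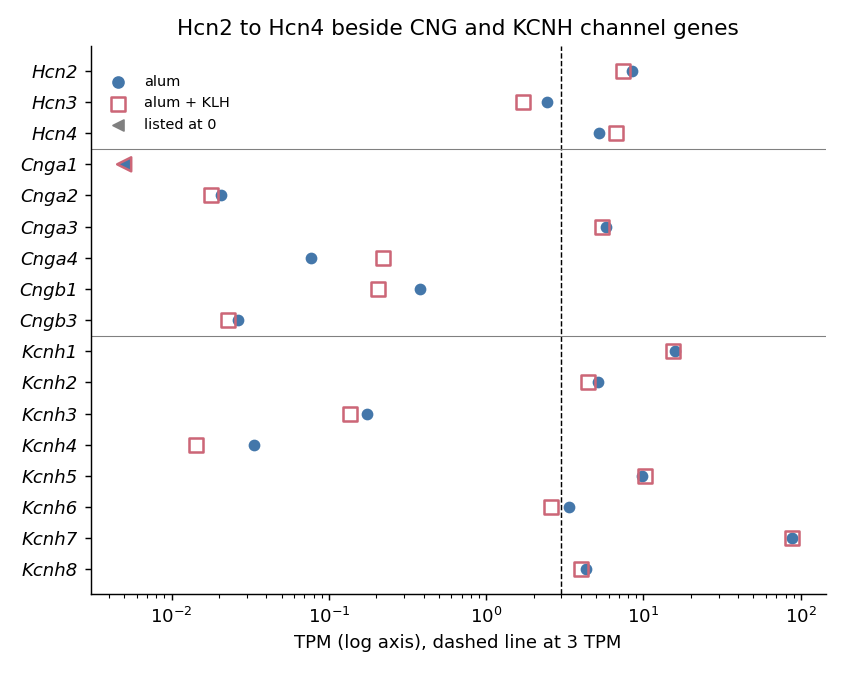
TPM on a log axis for Hcn2, Hcn3 and Hcn4 and for 6 CNG and 8 KCNH genes in the alum pool (filled blue circles) and the alum + KLH pool (open red squares), with triangles at the left edge for Cnga1, listed at 0, and a dashed line at 3 TPM. Kcnh7 is the highest at 88.0 and 87.5 TPM, Cnga3 is the only CNG gene right of the line, and Hcn2 and Hcn4 lie among the upper members.

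Of 10 proteins that bind HCN channels or adjust their number or gating, 6 were above 3 TPM in both pools. The best known of them is Pex5l, which encodes TRIP8b, a brain-enriched auxiliary subunit that controls HCN trafficking and opposes the effect of cAMP. It was at 144 TPM in alum and 159.7 TPM in alum + KLH, well above Hcn2. Its 4 transcript rows differed widely, and NM_001163517 alone made up 68.4% of the total in alum and 73.1% in alum + KLH. Vapa, a membrane anchor of the endoplasmic reticulum, reached 553 and 544 TPM and its relative Vapb 111 and 106 TPM. Nedd4l, a ubiquitin ligase acting on several channels, was at 133 and 119.9 TPM. Kctd3, an accessory protein described for HCN3, was at 28.4 and 29.0 TPM, more than 10 times the level of Hcn3. Flna, the actin crosslinker filamin A, was at 9.34 and 7.57 TPM. By contrast, the potassium channel beta subunit Kcne2 was at 0.19 and 0.17 TPM, and Lrmp, which encodes a regulator particular to HCN4, at 0.056 and 0.082 TPM. No gene of the group was 2-fold apart, where 0.905% of all 24411 genes were, and the median log2 ratio of the 6 was -0.044.

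The supply and removal of cyclic nucleotides was represented by adenylyl cyclases, phosphodiesterases and guanylyl cyclases. Of 10 adenylyl cyclase genes 5 were above 3 TPM in both pools, led by Adcy1 at 17.7 and 17.4 TPM, Adcy2 at 18.4 and 16.6 TPM and Adcy9 at 15.1 and 13.5 TPM, and the median log2 ratio of the 6 that exceeded 3 TPM in either pool was -0.15. Of 16 phosphodiesterases that degrade cAMP, 13 exceeded 3 TPM in each pool, and their median log2 ratio was 0.014. Pde4b was the highest at 103 and 104 TPM, before Pde1c at 95.6 and 90.8 TPM and Pde4d at 30.2 and 31.4 TPM. Both lists thus contained genes well above Hcn2. Among 5 guanylyl cyclase genes, Gucy1a2 at 35.2 and 37.8 TPM and Npr2, a natriuretic peptide receptor, at 28.7 and 23.9 TPM passed the threshold in both pools, whereas Gucy1a3 was at 1.93 and 1.47 TPM.

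Receptors that couple to Gs raise cAMP and so act upstream of HCN gating. Of 10 listed, 7 were above 3 TPM in both pools. Ptgir, the prostacyclin receptor, was the highest at 46.1 and 45.5 TPM. Htr7, a serotonin receptor, was at 26.3 and 31.3 TPM and Ptger4, a prostaglandin E2 receptor, at 25.1 and 28.7 TPM. The median log2 ratio of the 7 was -0.019, and 3 of them were above 0. T-type calcium and M-type potassium channels act in the same subthreshold voltage range. The M-type genes Kcnq5 and Kcnq3 were at 31.9 and 29.9 TPM and at 12.5 and 11.97 TPM, while the T-type genes Cacna1g, Cacna1h and Cacna1i were all under the threshold, with Cacna1h the highest at 1.86 and 1.43 TPM. Of 7 transcription factors known from the sinoatrial node, where Hcn4 is the main HCN gene, 4 were above 3 TPM in both pools. Isl1 was at 145 and 153 TPM, Shox2 at 49.1 and 56.5 TPM and Mef2c at 32.8 and 35.5 TPM, whereas Tbx5 and Tbx18 were under 1 TPM and Nkx2-5 was listed at 0. Isl1 and Shox2 are also factors of sensory neuron development. The median log2 ratio of the 4 was 0.091.

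Across these 9 lists, 46 of 78 genes were above 3 TPM in both pools, against 45.5% of all genes, and 48 in at least one. None of the 48 was 2-fold apart between the pools, where 1.64% of all such genes were, and their log2 ratios ran from -0.38 for Adcy5 to 0.24 for Htr7, with a median of -0.057. The ratio of Hcn4 lay above all 48, and that of Hcn3 below all but 1.

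**Figure D4:**
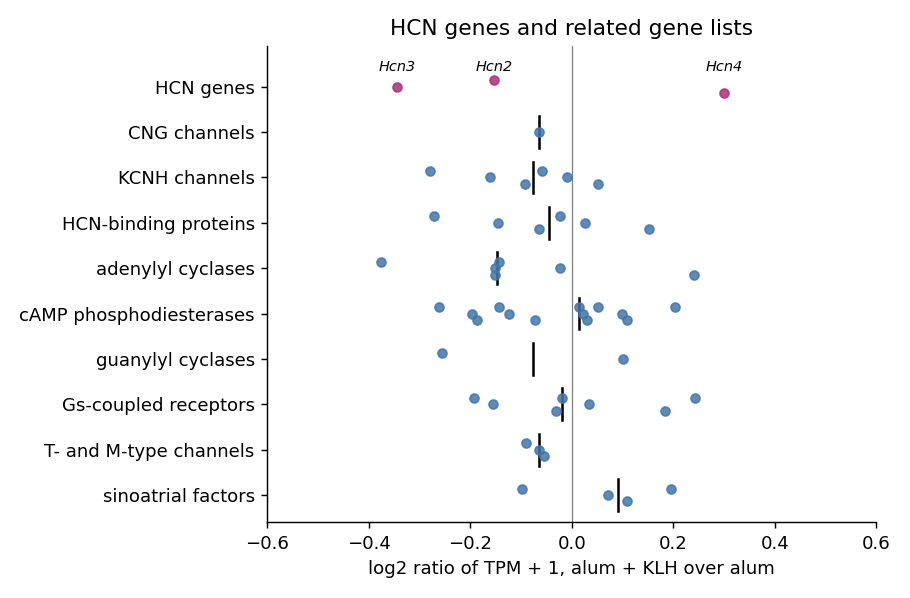
Log2 ratio of TPM + 1, alum + KLH over alum (horizontal axis), for the HCN genes (top row) and for the genes of 9 related lists that exceeded 3 TPM in either pool, with 1 point per gene and a vertical bar at each list's median. Hcn4 at 0.30 is right of every listed gene, and Hcn3 at -0.34 is left of all but Adcy5 at -0.38. Hcn3 did not pass the 3 TPM filter applied to the listed genes, and the listed genes are not matched to the HCN genes in level.

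With only 2 libraries, likeness between genes could be measured only as closeness in level, taken as the Euclidean distance in log2(TPM + 1) over the pools among the genes of the 9 lists. Nearest to Hcn2 were Calcrl at 7.53 and 7.34 TPM (distance 0.14), Flna (0.14) and Adora2b at 8.40 and 8.62 TPM (0.19). Pde7b was nearest to Hcn4, at 5.70 TPM in alum and 6.72 TPM in alum + KLH (0.10), followed by Cnga3 (0.27) and Pde4c (0.36). Nearest to Hcn3 was Mrvi1 at 2.45 and 2.16 TPM (0.22), and Gucy1a3 was also close (0.27).

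Markers of neuron classes also lay apart between the pools, and in bulk RNA fewer cells of a class and less RNA per cell cannot be told apart. Of the 6 genes of NF neurons, large neurons rich in neurofilament, 3 were higher in the alum + KLH pool, led by Spp1 (196 and 352 TPM, log2 ratio 0.84) and Pvalb (80.4 and 114 TPM, 0.50). The highest gene of that list, Nefh, was at 1021 and 973 TPM, and the summed level of all 6 was 1602 TPM in alum and 1737 TPM in alum + KLH. The higher sum rested on Spp1, since the other 5 genes, summed after the data were seen, came to 1406 and 1385 TPM. The 3 genes of peptidergic (PEP) nociceptors, led by Calca, summed to 7286 and 6841 TPM. The 2 genes of non-peptidergic (NP) nociceptors, led by P2rx3, summed to 447 and 386 TPM, and the 2 of TH neurons, led by Slc17a8, to 36.7 and 31.4 TPM. Among glia, the summed levels were 2170 and 2130 TPM for 6 Schwann cell genes, led by Pmp22, and 1414 and 1299.7 TPM for 4 satellite glia genes, led by Fabp7. The part of these markers in the values of the HCN genes was not tested.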

How the data were processed

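RNA-seq was available for 2 pools of DRG neurons, 1 library per group. The authors prepared stranded mRNA libraries, trimmed paired-end reads with cutadapt and ran kallisto on mouse mm10 transcripts, and what they deposited is 1 TPM value per RefSeq transcript and library. Tool versions and strand setting are not given in the sources used here, and reads shared between similar sequences are already divided in the values. TPM was summed per gene, and related lists were read in the same way. Named genes are the 3 members, the 3 highest of each list, those at least 2-fold apart, HCN-binding proteins above 3 TPM, the 3 nearest in level and the highest of each marker list, of which 2 genes are not reported here. Kcne2, Lrmp, Adcy5, the T-type and further sinoatrial genes, Pklr, Spp1, Pvalb, Myh6 and Ckm were named after their values were seen. The members and lists were chosen with earlier results of these data known. Positions and sequences came from GENCODE M21 (GRCm38). Calculations used Python 3.11.15, numpy 2.4.6, pandas 2.3.3 and matplotlib 3.10.9, and were tested on simulated data. The alternatives covered a threshold of 1 or 10 TPM, a pseudocount of 0.1 or 0.5 TPM, rescaling to equal medians or to Hprt, the highest transcript per gene, removal of short RNA rows, other filters and other neighbourhoods.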

Additional observations from a re-analysis of the deposited data

How the results depend on the processing

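The direction of the log2 ratio of each HCN gene held under rescaling to equal medians (a factor of 1.01), scaling to Hprt, pseudocounts of 0.1 and 0.5 TPM and removal of short RNA rows, while the highest transcript per gene gives the same value by construction, as each has 1 row. It ranged from -0.23 to -0.14 for Hcn2, from -0.49 to -0.33 for Hcn3 and from 0.23 to 0.35 for Hcn4. Scaled to Hprt, the Hcn4 ratio of 0.227 was no longer above the SD of 0.234 found without that scaling. At a threshold of 1 TPM all 3 genes counted as detected in each pool, and at 10 TPM 0 in each. The SD among genes of similar level depended on which genes were included. For Hcn2 it was 0.78 over the 200 closest genes and 0.17 over protein-coding genes, and for Hcn3 it was 0.23 over protein-coding genes and 0.24 without short RNA rows. Genes at least 2-fold apart numbered 25 higher and 49 lower above 10 TPM, against 81 and 110 of 11648 genes above 3 TPM. Counted per transcript, 265 were higher and 396 lower. The totals behind these counts differ, so the counts do not show how often genes or transcripts lay apart. At 1 TPM 4 guanylyl cyclase genes were above the threshold in both pools, and at 10 TPM 0 CNG, 2 KCNH, 3 adenylyl cyclase and 4 Gs-coupled receptor genes. At that higher threshold the median log2 ratio was -0.029 for phosphodiesterases and 0.082 for Gs-coupled receptors, each of opposite sign to the value above 3 TPM. With 1 library per group no library could be left out, and no paired analysis was possible because each group has a single library. The study's methods state a minimum read depth per sample, but TPM holds no read numbers for single genes. Since each group has 1 library, no interval between mice could be given for any value.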
